A study of Mus musculus with 9 samples.

Results

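ZEB1 occupancy at the collagen genes was measured by CUT&RUN in the mouse mammary tumour line PB3, which the labels give as Er-/Pr-/Her2-. The members were 91 of the 23623 deposited consensus peaks. A peak was a member when its centre lay inside a mouse collagen gene, or when the nearest boundary of a protein-coding gene within 50 kb belonged to one, on build GRCm38. The libraries were 2 each after 24, 48 and 72 h in 300 nM eribulin, labelled with the cell line name PB3_ERI, and 2 of untreated cells, labelled PB3-Parental. A single library with IgG in place of the ZEB1 antibody served the authors' peak calling and has no counts here. All libraries come from 1 cultured line, and whether replicates were grown separately is not in the labels, so the p-values reflect no more than the spread among these 8 libraries. CUT&RUN carries no RNA level, so neither the cell type nor collagen expression could be checked.

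Collagens are helical proteins of the extracellular matrix that assemble outside the cell into fibrils, sheets, beaded filaments and anchoring structures. ZEB1 is a zinc-finger factor that binds E-box sequences, is best known as a repressor of epithelial genes, and is a driver of epithelial to mesenchymal transition in carcinoma. Eribulin is a microtubule inhibitor used against metastatic breast cancer. In CUT&RUN an antibody directs a nuclease to the bound factor, and the DNA fragments it releases are sequenced and counted in peaks.

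Of 44 collagen genes, 25 had at least 1 peak. The genes without one were Col2a1, Col3a1, Col5a2, Col11a1 and Col11a2 of the fibrillar class, Col4a4 and Col4a5 of the basement membrane, Col6a6 and Col26a1 of the beaded-filament class, Col10a1 of the short chains, Col9a1, Col9a2, Col9a3, Col14a1, Col19a1 and Col20a1 of the fibril-associated class, and Col13a1, Col23a1 and Col25a1 of the transmembrane class. Col18a1 and Col4a2 held the most peaks, 12 each. The rule chose peaks by position, taking those inside a gene at any depth but those outside up to 50 kb away, so where they lay is a description and no finding: 69.2% of collagen peaks were inside a protein-coding gene and over 1 kb from its boundary, against 36.2% of all consensus peaks. Only 4 collagen peaks, or 4.40%, lay within 1 kb of a gene boundary, against 28.3% of all peaks, and 26.4% lay farther out, against 35.5% of all peaks. None lay within 1 kb of a small RNA gene.

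The upstream sequences are shown for 2 reasons: 3 belong to the tested collagen peaks at a gene start, and 3 belong to the collagen VI genes, where most of the lower calls lay but where the start itself held no peak. The motif searched was the E-box CAGGTG, which reads CACCTG on the other strand. It was present in 4 of 38 collagen windows of 250 bases upstream of a start, or 10.5%, and in 17.2% of all 32851 windows of that length in the RefSeq table of GRCm38.p6. A match is a description of letters and not a shown site. The sequences are RefSeq's, written 5′ to 3′ along the gene, with the E-box in capitals. Those of Col16a1 (chr4:130047635-130047816, plus strand), Col5a1 (chr2:27886175-27886279, plus strand) and Col7a1 (chr9:108953336-108953563, plus strand) are the stretches of the window inside the peak. Those of Col6a1 (chr10:76726045-76726294), Col6a2 (chr10:76623631-76623880) and Col6a3 (chr1:90844002-90844221) are on the minus strand and held no peak and no E-box.
Col16a1: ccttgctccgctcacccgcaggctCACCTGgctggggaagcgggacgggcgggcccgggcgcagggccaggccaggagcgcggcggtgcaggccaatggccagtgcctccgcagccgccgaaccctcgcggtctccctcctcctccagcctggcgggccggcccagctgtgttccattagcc
Col5a1: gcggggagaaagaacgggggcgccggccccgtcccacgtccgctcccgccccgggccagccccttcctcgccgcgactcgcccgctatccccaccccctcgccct
Col7a1: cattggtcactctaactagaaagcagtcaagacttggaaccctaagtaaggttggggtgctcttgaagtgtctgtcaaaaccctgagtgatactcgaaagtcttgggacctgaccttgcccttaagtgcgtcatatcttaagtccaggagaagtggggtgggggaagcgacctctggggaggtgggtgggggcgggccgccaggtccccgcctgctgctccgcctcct
Col6a1: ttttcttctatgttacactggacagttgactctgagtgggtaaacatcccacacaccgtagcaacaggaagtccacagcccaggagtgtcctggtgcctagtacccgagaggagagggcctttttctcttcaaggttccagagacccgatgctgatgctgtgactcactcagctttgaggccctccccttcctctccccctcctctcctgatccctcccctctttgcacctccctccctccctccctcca
Col6a2: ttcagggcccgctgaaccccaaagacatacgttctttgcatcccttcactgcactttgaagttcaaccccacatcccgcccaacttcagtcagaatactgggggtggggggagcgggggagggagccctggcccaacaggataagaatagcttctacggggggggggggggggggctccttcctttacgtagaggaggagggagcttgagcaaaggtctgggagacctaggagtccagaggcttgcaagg
Col6a3: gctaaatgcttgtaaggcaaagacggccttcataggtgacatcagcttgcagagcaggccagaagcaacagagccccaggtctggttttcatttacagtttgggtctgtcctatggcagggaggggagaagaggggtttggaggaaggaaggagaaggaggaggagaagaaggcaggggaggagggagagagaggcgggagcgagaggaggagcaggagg
The Col16a1 stretch is the one with the motif among these 6. The start shared by Col4a1 and Col4a2, which are read in opposite directions, also held a peak, with a summed count of 33 over all 8 libraries, too low to be tested.

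Library totals over the consensus peaks were 372896 and 672582 counts in control, 602187 and 747259 counts at 24 h, 765015 and 593248 counts at 48 h, and 441521 and 326944 counts at 72 h. Values below are CPM, that is counts scaled to a common library total by TMM, and each change is relative to the other peaks. Between replicates, chi-square per degree of freedom was 1.06 at 48 h, 0.931 in control, 0.953 at 24 h and 0.965 at 72 h. Replicates thus differed by about as much as counting error alone gives. No clear added spread between them was seen, so the p-values carry little beyond counting error. Whether replicates were separate cultures cannot be told from these values. Tested collagen peaks had between 12.2 and 159 CPM on average, with a median of 38.5, against a median of 35.5 for all tested peaks. The collagen peaks together held 0.433% and 0.414% of the signal in control, 0.433% and 0.427% of it at 24 h, 0.387% and 0.405% of it at 48 h, and 0.391% and 0.373% of it at 72 h. In the authors' peak lists, the median fold over IgG of the collagen peaks was 8.03 in control, 7.55 at 24 h, 9.60 at 48 h and 7.78 at 72 h.

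Collagen peaks in the authors' lists numbered 74 of the 91 in control, 63 at 24 h, 51 at 48 h and 44 at 72 h. As shares these were 81.3%, 69.2%, 56.0% and 48.4%, against 78.7%, 63.0%, 60.2% and 51.6% of all consensus peaks. All 4 lists contained 32 collagen peaks (35.2%, against 34.7% of all), the control list alone 20 (22.0%, against 19.0%), and the eribulin lists alone 17 (18.7%, against 21.3%). The consensus set was merged from these lists, so a peak found in the control list alone, or in eribulin lists alone, entered through the group in which it was high.

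Eribulin was followed by lower ZEB1 signal around Col6a1 and Col6a2 and at a few peaks of Col6a3, Col18a1 and Col4a2, and by higher signal at single peaks of Col8a1, Col8a2, Col7a1 and Col4a1. Of 83 tested collagen peaks, 9 fell and 4 rose over the mean of the 3 eribulin times (edgeR's quasi-likelihood test with Benjamini-Hochberg adjustment over the 21192 peaks tested, threshold 0.05). The lower calls were 10.8% of the collagen peaks tested, against 8.53% of all peaks, and the higher calls 4.82%, against 8.27%, so that the total was near the 16.8% called in either direction across all peaks. The median log2 fold change of the collagen peaks was −0.05. The other 8 collagen peaks had summed counts of 30 to 59 over all libraries and were not tested.

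By time, 5 collagen peaks fell and 2 rose at 24 h, where 4.61% of all tested peaks fell and 6.44% rose. At 48 h, 9 fell and 1 rose, beside 5.41% and 6.09% of all peaks. At 72 h, 9 fell and 2 rose, beside 5.74% and 6.84%. Over these 4 comparisons, which share the same 2 control libraries, 17 collagen peaks were called at least once (20.5%, against 24.3% of all peaks), 11 of them lower and 6 higher, and 4 were lower at all 3 times. In 13 peaks (15.7%, against 12.5% of all) the 6 eribulin libraries were all below both controls, and in 9 (10.8%, against 12.7%) all above. Without control replicate 2, the deeper of the controls, edgeR called 1 collagen peak at 24 h, 2 at 48 h, 3 at 72 h and 2 over the mean, those of Col6a2 and of Col18a1 far upstream. Of the 22132 peaks tested without that library it called 508, 517, 713 and 663, or 2.3%, 2.34%, 3.22% and 3.0% of them, and 88 collagen peaks were tested. With every library thinned to the smallest total, 5 of the 9 falls over the mean (3 at Col6a1 and Col6a2, 1 each at Col6a3 and Col18a1) and 1 of the 4 rises (Col4a1) were called, with 9.90% of all peaks called. With members kept only inside a gene or within 10 kb, 66 were tested, 5 fell and 4 rose over the mean, without the Col6a2 fall, the far Col18a1 fall and 1 fall each of Col6a1 and Col6a3, and 2 falls at collagen VI genes were left of 5. DESeq2 called 2 over the mean, at Col18a1 and Col6a1, where it called 1.63% of all peaks to which it gave an adjusted p. It called none at 24 h, 1 at 48 h and 1 at 72 h, where it called 0.97%, 0.784% and 0.915% of those peaks. At an unadjusted p below 0.05 it had 5 collagen peaks at 24 h and 10 over the mean, beside 8.55% and 12.8% of all peaks, and edgeR had 23 and 27, beside 25.6% and 30.7%.

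**Figure D1:**
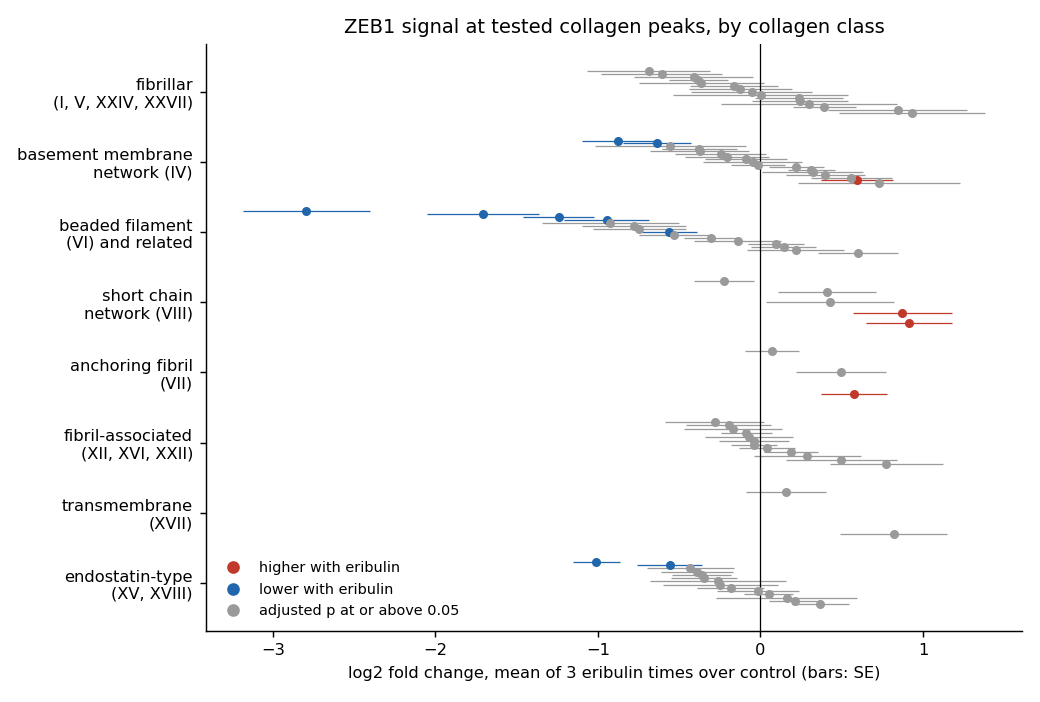
Log2 fold change (mean of the 3 eribulin times over control, horizontal axis) of each of the 83 tested collagen peaks by collagen class, with bars of 1 SE and color for adjusted p below 0.05 in edgeR's test. The lowest values are all in the beaded-filament row, down to −2.80, and the short-chain row holds 2 of the 4 higher calls.

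Collagen VI, the beaded-filament collagen that surrounds cells between the basement membrane and the interstitial matrix, is built of the products of Col6a1, Col6a2 and Col6a3. At these 3 genes 5 of 10 tested peaks fell and none rose over the mean (median log2 fold change −0.85), while at all other collagen genes 4 of 73 fell and 4 rose (5.48% each, median −0.01). Of all tested peaks 8.53% fell and 8.27% rose. The 3 collagen VI genes were those with most of the lower calls, so the split is a description and has no test.

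The largest fall was at a peak 10.7 kb upstream of Col6a2 (chr10:76634091-76634537). It had 57.8 and 36.7 CPM in control, 11.9 and 15.0 CPM at 24 h, 11.9 and 11.98 CPM at 48 h, and 0 and 3.14 CPM at 72 h. All 6 eribulin libraries lay below both controls, with the 72 h libraries lowest. The log2 fold change over the mean was −2.80 ± 0.391 (SE, adjusted p = 3.73e-08), and the peak fell at 24 h (−1.68), 48 h (−1.87) and 72 h. At 72 h the summed count of both libraries was 1, against 45 in control, a depth-scaled ratio of 0.0302 with an exact 95% interval of 0.000749 to 0.177 that covers counting error only. No library left out ended these calls. DESeq2 gave this peak no adjusted p.

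The next were 2 peaks on either side of Col6a1. The peak 39.6 kb past the 3′ end of Col6a1 (chr10:76668933-76669388) had 63.3 and 81.0 CPM in control, 29.0 and 21.8 CPM at 24 h, 38.4 and 35.9 CPM at 48 h, and 32.4 and 34.5 CPM at 72 h. All eribulin libraries lay below both controls, and the 24 h libraries were lowest (log2 fold change over the mean −1.24 ± 0.220, SE, adjusted p = 1.59e-05). The peak 4.53 kb upstream of Col6a1 (chr10:76730370-76730771) had 30.3 and 39.7 CPM in control, 5.12 and 15.0 CPM at 24 h, 10.6 and 10.3 CPM at 48 h, and 13.9 and 9.41 CPM at 72 h. Here too the groups did not overlap, and the fall was of like size at each time (−1.71 ± 0.344 over the mean, SE, adjusted p = 0.000157). Without control replicate 2 neither peak passed over the mean (adjusted p = 0.0926 past the 3′ end and 0.131 upstream) nor at any single time. At 72 h the call past the 3′ end was also lost without 72 h replicate 1 (adjusted p = 0.102). The upstream call was lost at 24 h without 24 h replicate 1 (0.0758), and at 72 h without replicate 1 (0.0900) or 2 (0.120) of that time.

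Col6a2 and Col6a1 lie in tandem on the minus strand of chromosome 10, and 5 of the 6 peaks of the locus lay in the 85.2 kb between them. The other 3 peaks, described after their values were seen, did not pass the test or were not tested: they averaged 5.02 to 22.4 CPM in eribulin, against 16.5 to 38.2 CPM in control. Every one of the 6 peaks had all 6 eribulin libraries below both controls, as had 12.5% of all tested peaks. That share among peaks of the control list alone is not given here. Summed over the 6, the signal was 237 and 225 CPM in control, 80.1 and 84.6 CPM at 24 h, 99.2 and 103 CPM at 48 h, and 87.8 and 84.7 CPM at 72 h. Of the 6 peaks, 5 were found in the authors' control list alone. Among all tested peaks of the control list alone, 18.6% fell over the mean and none rose, and among the 14 tested collagen peaks of that list alone, 4 (28.6%) fell, 3 at this locus and 1 at Col6a3. How much of the fall at this locus goes with that entry rule was not tested.

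**Figure D2:**
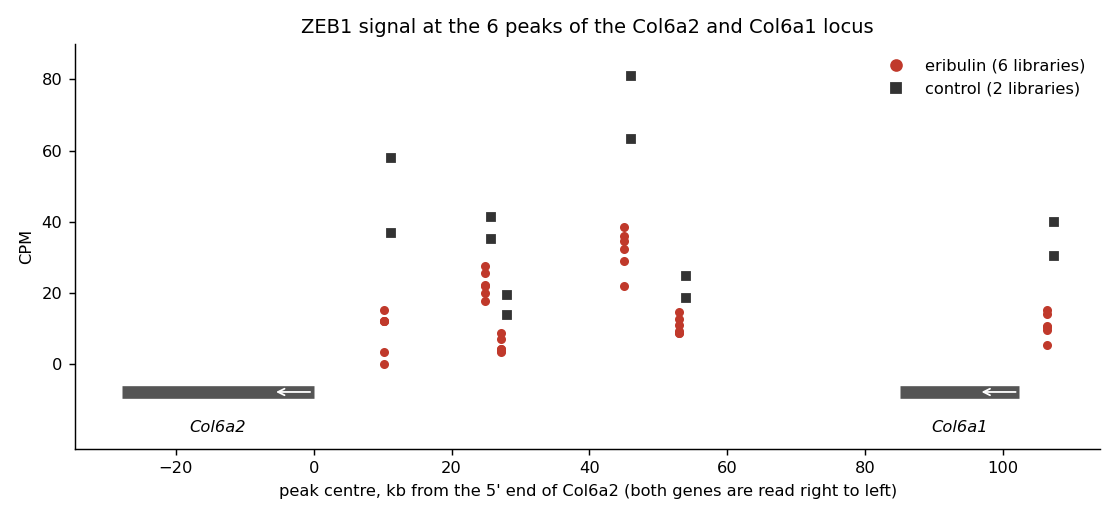
CPM of each library (vertical axis) at the 6 peaks of the Col6a2 and Col6a1 locus, placed by distance in kb from the 5′ end of Col6a2, with gene bodies drawn below and arrows for the direction of transcription. At each peak the 6 eribulin points lie below the 2 control squares, and no peak lies inside either gene.

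Col6a3 encodes the longest chain of collagen VI and lies on chromosome 1. The peak 47.8 kb past its 3′ end (chr1:90718741-90719300) had 52.3 and 47.4 CPM in control, 34.1 and 17.7 CPM at 24 h, 22.5 and 22.2 CPM at 48 h, and 34.7 and 22.0 CPM at 72 h. The groups did not overlap, and the log2 fold change over the mean was −0.95 ± 0.261 (SE, adjusted p = 0.00658). Inside the gene, 9.03 kb from the 5′ end, a stronger peak (chr1:90834806-90835129) had 127 and 104 CPM in control, 113 and 85.9 CPM at 24 h, 76.7 and 58.2 CPM at 48 h, and 60.1 and 72.1 CPM at 72 h. A 24 h library lay between the controls and the later libraries lay below both (−0.56 ± 0.171 over the mean, SE, adjusted p = 0.0144).

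The peak 12.5 kb past the 3′ end of Col6a3 was lower at 72 h only (−1.38 ± 0.483, SE, adjusted p = 0.0472). It had 35.8 and 29.0 CPM in control, 30.7 and 28.6 CPM at 24 h, 14.6 and 20.5 CPM at 48 h, and 11.6 and 12.5 CPM at 72 h. The 24 h libraries overlapped the controls and the later ones lay below both. The fifth peak, 22.9 kb upstream and the strongest tested peak of its class, had 96.3 and 87.1 CPM in control, 109 and 92.8 CPM at 24 h, 83.3 and 85.5 CPM at 48 h, and 129 and 75.3 CPM at 72 h, with no call. Summed over its 5 peaks, Col6a3 had 360 and 303 CPM in control and 338 and 261 CPM at 24 h, which overlapped. The sums were 237 and 229 CPM at 48 h, and 252 and 226 CPM at 72 h, below both controls. The Col6a3 falls over the mean were lost without control replicate 2 (adjusted p = 0.120 past the 3′ end and 0.0761 inside), and the inside one also without control replicate 1 (0.146). The 72 h call at 12.5 kb was lost without any 1 of the control or 72 h libraries (adjusted p between 0.123 and 0.251).

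The calls of single times at Col6a3 also rested on single libraries. Past the 3′ end the peak fell at 24 h and 48 h, and it did not pass at 24 h without control replicate 1 (adjusted p = 0.105), control replicate 2 (0.173) or 24 h replicate 2 (0.468), nor at 48 h without control replicate 2 (0.110) or 48 h replicate 1 (0.0767). The peak inside fell at 48 h and 72 h, and it did not pass at 48 h without control replicate 1 (0.0965), control replicate 2 (0.0555) or 48 h replicate 2 (0.127), nor at 72 h without control replicate 1 (0.0940), control replicate 2 (0.0525) or 72 h replicate 1 (0.231). Its direction was down in each of these refits.

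Col6a4 and Col6a5, which encode further chains related to that of Col6a3, had 3 tested peaks with log2 fold changes over the mean of 0.14 to 0.60 and no call. Col28a1, a beaded-filament relative, had 2 tested peaks, both with a log2 fold change below 0 at each time, and 1 of them, inside the gene, was lower at 48 h only (−0.74 ± 0.263, SE, adjusted p = 0.0485). That peak had 57.8 and 67.3 CPM in control, 44.3 and 40.9 CPM at 24 h, 35.7 and 41.1 CPM at 48 h, and 43.9 and 65.9 CPM at 72 h. A library of 72 h lay among the controls, and the 48 h call was lost without any 1 of the control or 48 h libraries (adjusted p between 0.0659 and 0.424).

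**Figure D3:**
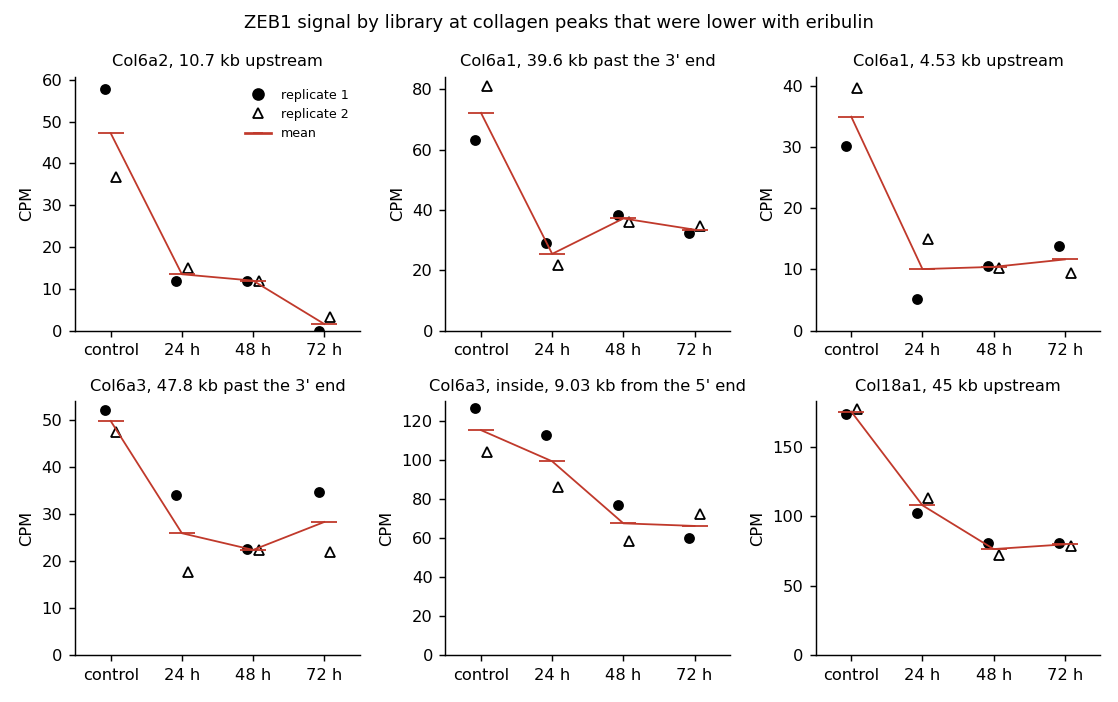
CPM of each library (vertical axis) in control and at 24, 48 and 72 h for 6 of the 9 collagen peaks called lower over the mean, with points for the replicates and a red line for the mean. The Col6a1 and Col18a1 panels are at their lower level by 24 or 48 h, and the Col6a2 panel reaches 0 and 3.14 CPM at 72 h.

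Col18a1 encodes the basement membrane collagen whose C-terminal fragment is endostatin, an inhibitor of blood vessel growth. Of its 12 peaks, all tested, 2 fell and none rose over the mean, beside 8.53% and 8.27% of all tested peaks. The stronger lay 45.0 kb upstream (chr10:77211109-77211911), with its centre inside the annotated non-coding RNAs Gm35837 and Gm40704. It had 173 and 177 CPM in control, 102 and 113 CPM at 24 h, 80.7 and 71.9 CPM at 48 h, and 80.9 and 78.4 CPM at 72 h. No eribulin library came near the controls, the 24 h libraries lay between the controls and the later times, and the peak was in all 4 of the authors' lists. It fell by 1.01 ± 0.144 over the mean on the log2 scale (SE, adjusted p = 6.71e-08), by 0.70 at 24 h, 1.19 at 48 h and 1.14 at 72 h. DESeq2 called it too over the mean (adjusted p = 0.00305), and of the edgeR calls 1 was lost with a library left out, that at 24 h without control replicate 2 (adjusted p = 0.0937).

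The other Col18a1 peak that fell lay inside the gene (chr10:77084478-77084858). It had 102 and 68.8 CPM in control, 58.0 and 66.8 CPM at 24 h, 60.9 and 56.5 CPM at 48 h, and 37.0 and 53.3 CPM at 72 h. All eribulin libraries lay below both controls, the 24 h ones narrowly (−0.56 ± 0.198 over the mean, SE, adjusted p = 0.0380). That call was lost without control replicate 1 (adjusted p = 0.415), control replicate 2 (0.0520), 24 h replicate 1 (0.0584) or 72 h replicate 1 (0.124). At 72 h the peak fell as well, and did not pass without control replicate 1 (0.198) or 72 h replicate 1 (0.361). The strongest Col18a1 peak on average, inside the gene, had 124 and 124 CPM in control, 152 and 160 CPM at 24 h, 124 and 140 CPM at 48 h, and 85.5 and 125 CPM at 72 h, with no call against control. Summed over its 12 peaks, Col18a1 had 836 and 789 CPM in control, 749 and 741 CPM at 24 h, 565 and 642 CPM at 48 h, and 550 and 565 CPM at 72 h. Col15a1, the other collagen with an endostatin-like end, had 2 tested peaks and no call (0.22 and 0.37).

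Collagen IV forms the network of basement membranes, and the Col4a1 and Col4a2 chains, encoded head to head on chromosome 8, make its most widespread form. These neighbours held 18 peaks, of which 14 were tested. Over the mean 2 fell and 1 rose, beside 8.53% and 8.27% of all tested peaks. Summed over the 18, the signal was 817 and 806 CPM in control, 892 and 876 CPM at 24 h, 745 and 801 CPM at 48 h, and 753 and 781 CPM at 72 h, so the sum at 24 h lay above both controls and the later sums below both.

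In Col4a2, the peak 10.5 kb from the 5′ end (chr8:11322966-11323642) had 88.0 and 67.3 CPM in control, 59.7 and 61.4 CPM at 24 h, 55.6 and 32.5 CPM at 48 h, and 34.7 and 47.1 CPM at 72 h. The groups did not overlap, and the fall over the mean was 0.64 ± 0.209 on the log2 scale (SE, adjusted p = 0.0246). Farther into Col4a2, 99.2 kb from the 5′ end (chr8:11411784-11412214), a peak had 74.3 and 65.7 CPM in control, 56.3 and 40.9 CPM at 24 h, 38.4 and 32.5 CPM at 48 h, and 34.7 and 25.1 CPM at 72 h. Again no eribulin library reached the controls, and the means were lower at each later time (−0.87 ± 0.221 over the mean, SE, adjusted p = 0.00282). Between them lay the strongest peak of the class, 59.1 kb from the 5′ end, with 116 and 144 CPM in control, 191 and 172 CPM at 24 h, 127 and 178 CPM at 48 h, and 146 and 198 CPM at 72 h, which did not pass the test (0.31 ± 0.145 over the mean, SE).

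Col4a1 had a peak inside the gene, 54.1 kb from the 5′ end (chr8:11258518-11259017), that rose. It had 52.3 and 44.3 CPM in control, 106 and 76.4 CPM at 24 h, 59.5 and 71.9 CPM at 48 h, and 57.8 and 69.0 CPM at 72 h. Every eribulin library lay above both controls, the 24 h ones highest (0.92 ± 0.237 at 24 h, SE, adjusted p = 0.00507, and 0.59 ± 0.220 over the mean, SE, adjusted p = 0.0471).

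The collagen IV calls were sensitive to single libraries. The Col4a2 call 99.2 kb in was lost over the mean without control replicate 2 (adjusted p = 0.0698). At 48 h it was lost without control replicate 1 (0.0523), control replicate 2 (0.0896) or 48 h replicate 2 (0.0715), and at 72 h without control replicate 2 (0.0531) or 72 h replicate 2 (0.0954). The call 10.5 kb in was lost over the mean without control replicate 1 (0.212), control replicate 2 (0.0812), 48 h replicate 2 (0.0608) or 72 h replicate 1 (0.0730), at 48 h without either control or 48 h replicate 2 (between 0.0939 and 0.358), and at 72 h without any 1 of the control or 72 h libraries (between 0.0519 and 0.322). The Col4a1 rise over the mean was lost without either control, 24 h replicate 1, 48 h replicate 2 or 72 h replicate 2 (between 0.0742 and 0.470) with another scaling, RLE size factors (0.05002), and with summed replicate pairs (0.0592), and at 24 h without control replicate 2 (0.195) or 24 h replicate 1 (0.122). Col4a3 and Col4a6, which encode chains of collagen IV networks with a narrower distribution, had 3 tested peaks and no call.

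**Figure D4:**
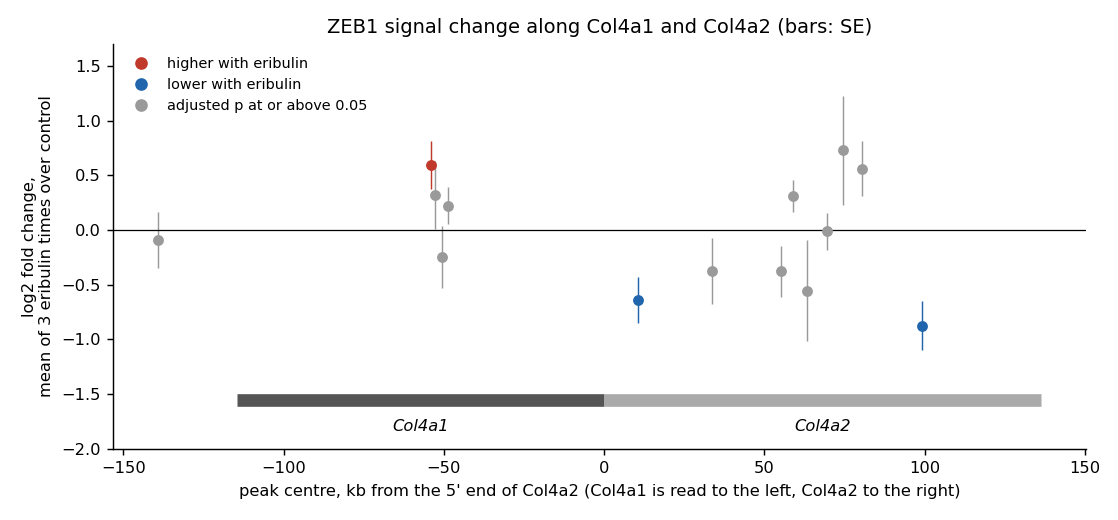
Log2 fold change over the mean of the 3 eribulin times (vertical axis, bars of 1 SE) at the 14 tested peaks of Col4a1 and Col4a2, placed by distance in kb from the 5′ end of Col4a2. The 2 lower calls, −0.64 and −0.87, lie in Col4a2 at 10.5 and 99.2 kb, and the higher call, 0.59, lies in Col4a1.

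Collagen VIII, a short-chain network collagen of endothelial and vascular matrix, is built of the products of Col8a1 and Col8a2. Of its 5 tested peaks 2 rose and none fell over the mean, at 1 peak in each gene. Of all tested peaks 8.27% rose and 8.53% fell. The Col8a1 peak (chr16:57649898-57650453), inside the gene, had 35.8 and 27.5 CPM in control, 49.5 and 50.5 CPM at 24 h, 62.2 and 92.4 CPM at 48 h, and 64.7 and 31.4 CPM at 72 h. The 48 h libraries were high and 1 of the 72 h libraries lay among the controls (1.30 ± 0.279 at 48 h, SE, adjusted p = 0.000706, and 0.91 ± 0.264 over the mean, SE, adjusted p = 0.00943). The Col8a2 peak (chr4:126301037-126301588), also inside its gene, had 22.0 and 19.9 CPM in control, 29.0 and 39.6 CPM at 24 h, 33.1 and 39.3 CPM at 48 h, and 46.2 and 40.8 CPM at 72 h. Here all eribulin libraries lay above both controls, the 72 h ones highest (0.87 ± 0.306 over the mean, SE, adjusted p = 0.0379).

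The strongest Col8a1 peak had 82.5 and 85.6 CPM in control, 80.1 and 57.3 CPM at 24 h, 79.4 and 87.2 CPM at 48 h, and 64.7 and 72.1 CPM at 72 h, with no call. The rise at the other Col8a1 peak was lost over the mean without control replicate 2 (adjusted p = 0.327) or 72 h replicate 1 (0.112), and at 48 h without control replicate 2 (0.110). That of Col8a2 was lost over the mean without either control, 24 h replicate 2, 48 h replicate 2 or 72 h replicate 1 (adjusted p between 0.0578 and 0.371). Col8a2 also rose at 72 h, and that call was lost without either control, 24 h replicate 1 or either 72 h library (between 0.0502 and 0.281).

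Col7a1 encodes the collagen of the anchoring fibrils that fasten epithelial basement membranes to the tissue below. A peak inside it (chr9:108977935-108978628) had 52.3 and 56.6 CPM in control, 88.7 and 80.5 CPM at 24 h, 74.1 and 83.8 CPM at 48 h, and 69.3 and 104 CPM at 72 h. The groups did not overlap, and the rise over the mean was 0.58 ± 0.203 (SE, adjusted p = 0.0373), with no call at a single time. It was lost without either control, 24 h replicate 1, 48 h replicate 2 or 72 h replicate 2 (adjusted p between 0.0524 and 0.250). The peak at the start of Col7a1, part of whose sequence is given above, had 99.0 and 90.2 CPM in control, 104 and 99.6 CPM at 24 h, 88.6 and 99.2 CPM at 48 h, and 92.5 and 110 CPM at 72 h. The 24 h libraries lay just above the controls and those of 48 h and 72 h overlapped them (0.07 ± 0.167 over the mean, SE).

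Col17a1 encodes the transmembrane collagen of hemidesmosomes, by which epithelial cells hold on to the basement membrane. A peak inside it (chr19:47654953-47655211) had 16.5 and 18.3 CPM in control, 27.3 and 27.3 CPM at 24 h, 29.1 and 27.4 CPM at 48 h, and 34.7 and 47.1 CPM at 72 h. All eribulin libraries lay above both controls, and the peak was called at 72 h (1.16 ± 0.404, SE, adjusted p = 0.0449) but not over the mean (0.82 ± 0.331, SE, adjusted p = 0.0793). The 72 h call was lost without any 1 of the control or 72 h libraries (adjusted p between 0.0952 and 0.254). The peak was in all 3 eribulin lists and not in the control list, and of all tested peaks not in the control list 16.7% rose at 72 h. The other Col17a1 peak, 8.01 kb upstream, had 44.0 and 39.7 CPM in control, 34.1 and 53.2 CPM at 24 h, 52.9 and 35.9 CPM at 48 h, and 46.2 and 50.2 CPM at 72 h, with groups that overlapped.

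**Figure D5:**
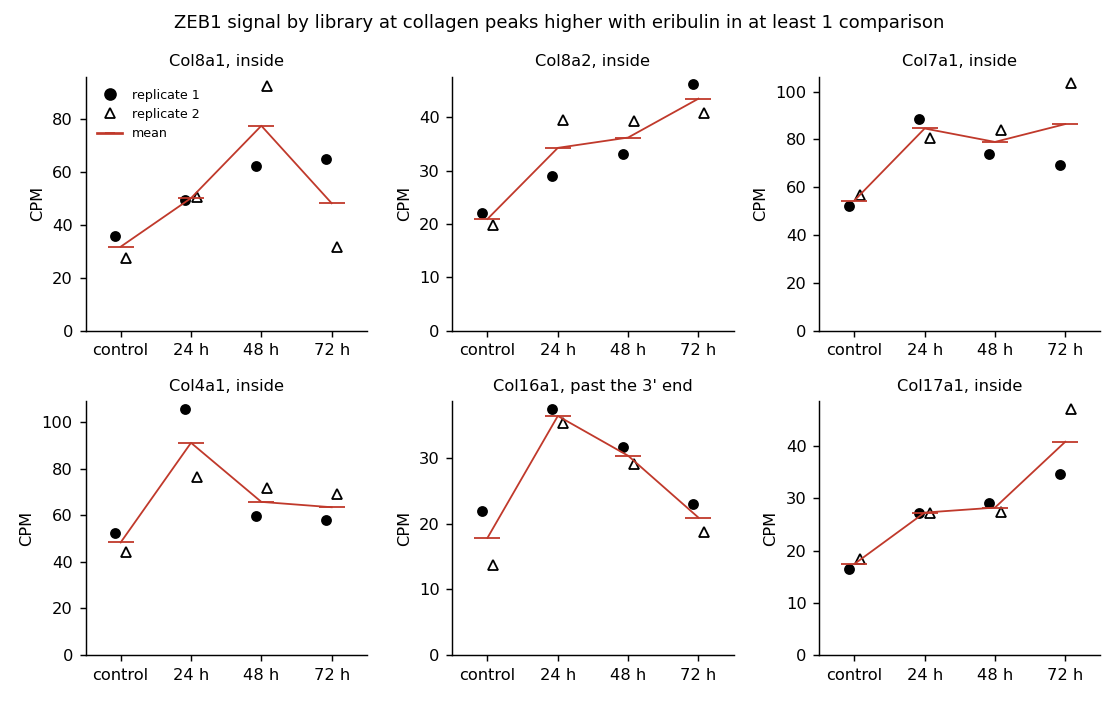
CPM of each library (vertical axis) in control and at 24, 48 and 72 h for the 6 collagen peaks called higher in at least 1 comparison with control, with points for the replicates and a red line for the mean. Col8a2 and Col17a1 are highest at 72 h, Col4a1 and Col16a1 at 24 h and Col8a1 at 48 h.

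The fibril-forming collagens, which make up the bulk of interstitial matrix, had 15 tested peaks at Col1a1, Col1a2, Col5a1, Col5a3, Col24a1 and Col27a1. None was called against control at any time or over the mean by edgeR, beside 24.3% of all tested peaks called in at least 1 of these comparisons. DESeq2 called none either, but most of these peaks had no adjusted p from it and could not be called. At 24 h it gave no adjusted p to 13 of the 15, and at 48 h to 12. At 72 h and over the mean it gave none to 10. At an unadjusted p below 0.05 over the mean edgeR had 1 lower and 2 higher, and DESeq2 none, beside 30.7% and 12.8% of all tested peaks. Their log2 fold changes over the mean ran between −0.69 and 0.93. The strongest, inside Col27a1, had 88.0 and 97.8 CPM in control, 83.6 and 102 CPM at 24 h, 54.2 and 87.2 CPM at 48 h, and 64.7 and 50.2 CPM at 72 h. The 48 h and 72 h libraries all lay below both controls, the higher of 48 h narrowly, and those of 24 h overlapped them (−0.69 ± 0.259 at 72 h, SE, adjusted p = 0.0635).

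The fibril-associated collagens Col12a1, Col16a1 and Col22a1, which sit on the surface of fibrils or at tissue junctions, had 12 tested peaks and no call over the mean by either tool (edgeR had 1 at an unadjusted p below 0.05, DESeq2 none). Of all tested peaks edgeR called 16.8% over the mean and had 30.7% at an unadjusted p below 0.05. To 2 of the 12 DESeq2 gave no adjusted p over the mean. The strongest, 10.6 kb upstream of Col16a1, had 132 and 147 CPM in control, 153 and 128 CPM at 24 h, 136 and 130 CPM at 48 h, and 146 and 132 CPM at 72 h. Its groups overlapped (−0.04 ± 0.142 over the mean, SE). A peak 3.24 kb past the 3′ end of Col16a1 rose at 24 h (1.11 ± 0.371, SE, adjusted p = 0.0385). It had 22.0 and 13.8 CPM in control, 37.5 and 35.5 CPM at 24 h, 31.8 and 29.1 CPM at 48 h, and 23.1 and 18.8 CPM at 72 h. The 24 h libraries stood highest and the 72 h ones overlapped the controls. The call was lost without control replicate 2 (adjusted p = 0.477) or either 24 h library (0.122 and 0.117).

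Between the last and the earliest eribulin time, 4 collagen peaks were lower and 2 higher at 72 h against 24 h, beside 2.39% and 2.32% of all tested peaks, or 4.71% in either direction. DESeq2, which called 0.0781% of the peaks to which it gave an adjusted p, called none of them, with 9 collagen peaks at an unadjusted p below 0.05 (6.28% of all peaks) against 19 by edgeR (21.3% of all). To 55 of the 83 tested collagen peaks DESeq2 gave no adjusted p here. Without any 1 of the 24 h or 72 h libraries, the total was 1 or 2.

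Collagen chains pass through a set of enzymes and chaperones in the endoplasmic reticulum, are cut and crosslinked outside the cell, and are bound by integrins and discoidin domain receptors. Peaks of 48 genes with such roles, a list taken from general knowledge of collagen assembly, numbered 68 at 34 genes, and 64 were tested. Over the mean 10 fell (15.6%, against 8.53% of all peaks) and 6 rose (9.38%, against 8.27%), with a median log2 fold change of −0.09. DESeq2 called none of the 64, with 9 at an unadjusted p below 0.05 against 22 by edgeR. To 19 of the 64 DESeq2 gave no adjusted p. Which calls of this list were lost with a library left out is not given here, so they are not shown to be firmer than the collagen calls. Of the 6 rises, 5 were at peaks not in the control list, all but that of Fkbp14, and among all such tested peaks 21.2% rose. Of the 10 falls, 3 were at peaks of the control list alone, at Ddr2, P3h2 (the deeper) and P4ha2.

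By role, 7 of 32 tested peaks of processing and assembly genes fell and 3 rose. These were 21.9% and 9.38%, beside 8.53% and 8.27% of all tested peaks. The falls were −1.31 and −0.67 at P3h2, a prolyl 3-hydroxylase, −1.15 past the end of P4ha2, a catalytic chain of prolyl 4-hydroxylase, −0.49 at the start of its partner P4hb, −0.55 and −0.56 near the start of Adamts14, a procollagen N-proteinase, and −0.52 upstream of Pcolce2, an enhancer of C-propeptide removal. The rises were 2.49 inside P4ha2, 1.48 in Bmp1, which removes the C-propeptide, and 1.04 in Fkbp14, a prolyl isomerase. The Fkbp14 peak also lay inside the neighbouring gene Plekha8, 129 bp from a boundary of Plekha8. The P4ha2 peak that rose had 2.75 and 3.06 CPM in control, 29.0 and 8.19 CPM at 24 h, 14.6 and 22.2 CPM at 48 h, and 18.5 and 15.7 CPM at 72 h. Its control mean of 2.90 CPM was the lowest among the 64 tested peaks of the list, so the size of this rise rests on very few control reads. P4ha2 had calls in both directions at different peaks.

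Among crosslinking enzymes, the lysyl oxidase family, 2 of 12 tested peaks fell, at Loxl2 (−1.28) and Lox (−0.61), and 2 rose, at Loxl3 (1.27) and Loxl4 (1.13). Falls and rises were 16.7% each, beside 8.53% and 8.27% of all tested peaks. Among receptors, Ddr2, a receptor for fibrillar collagen, had the deepest fall of the list (−1.38 ± 0.275, SE, adjusted p = 0.000132). That peak inside Ddr2 had 49.5 and 48.9 CPM in control, 23.9 and 24.6 CPM at 24 h, 18.5 and 11.98 CPM at 48 h, and 16.2 and 18.8 CPM at 72 h, with no overlap. Ddr1, its relative in epithelial cells, had a peak that rose (1.75 ± 0.644, SE, adjusted p = 0.0459), with 2.75 and 4.59 CPM in control, 10.2 and 9.55 CPM at 24 h, 11.9 and 17.1 CPM at 48 h, and 23.1 and 12.5 CPM at 72 h. Its raw counts in control were 1 and 3, and it was not in the control list. The 13 other tested receptor peaks had no call over the mean, so 1 of 15 (6.67%) fell and 1 (6.67%) rose. At single times 2 peaks of Itgb1, the chain shared by collagen-binding integrins, and 1 of Itga1 were higher at 24 h in edgeR's test (adjusted p between 0.00703 and 0.0403), the Itga1 peak was lower at 72 h against 24 h, and a peak of Itga10 was lower at 48 h (adjusted p = 0.0244). The Itgb1 peaks were not in the control list. The 5 tested peaks of collagen-degrading proteases had no call in any comparison, beside 16.8% of all tested peaks called over the mean.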

How the data were processed

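The authors deposited a raw count per library for each consensus peak, and 1 peak list per ZEB1 group, per the file headers. Per the submitters' processing notes, the build was GRCm38 (mm10) and the tools included Bowtie2 2.2.6, featureCounts and MACS2 2.1.1. Their settings, as used by the authors, are not given in the sources used here. In the deposited lists stand the fold over IgG of each peak, used to describe peaks, its score and the −log10 of its q, neither of which entered a test. Peak names in the lists give replicate 1 against IgG, and nothing used here says how replicate 2 entered.

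Peaks were assigned to genes with RefSeq's GRCm38.p6 table. The main test, on the counts of all 8 ZEB1 libraries, was that of edgeR 4.0.16 under R 4.3.3 (filterByExpr by group, TMM scaling, 1 mean per group, robust quasi-likelihood fit with 4 residual degrees of freedom), over 21192 peaks, with DESeq2 1.42.0 as an alternative. The fit was tested on counts simulated with a common spread for all peaks. There a log2 change of 1 over the mean was called at 56% of 50 peaks, and of −1 at 35.7% of 42 peaks. Far fewer peaks were given a change in the simulation than were called in the data, which makes the adjustment stricter. These rates are therefore not the detection rates of the reported test. A peak without a call is not shown to be unchanged. CPM were computed from counts and TMM-scaled totals. Each change is relative to other peaks, as no spike-in scaling was used. Totals of 326944 to 765015 counts limit precision, and intervals cover counting error only. Other alternatives were RLE size factors, no filter, a replicate block, summed replicate pairs, thinning to the smallest total, a 10 kb member window and leaving out each library.

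Peaks described library by library were those called in at least 1 of the 4 comparisons with control, and the strongest tested peak of each collagen class. Genes of the related list were named when called over the mean. Outside that rule, Itgb1, Itga1 and Itga10 were named for calls at single times or between eribulin times. Such calls among processing and crosslinking genes are not described. The members and lists were chosen with earlier results of these data known. Replicate numbers were not shown to pair libraries: same-numbered libraries deviated together with correlations of −0.0302 to 0.00100. Coverage tracks were not analysed here.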

Additional observations from a re-analysis of the deposited data

Results flagged for a closer look

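Between eribulin times, 6 collagen peaks differed at 72 h against 24 h by edgeR's test of that difference (adjusted p below 0.05). They were named after their values were seen, except the Col6a2 peak and the strongest Col18a1 peak, which the naming rule covers. DESeq2 called none of the 6, but in this comparison it gave no adjusted p to 55 of the 83 tested collagen peaks. Each of the 6 calls was lost without at least 1 library.

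The Col6a2 peak 10.7 kb upstream had 0 and 3.14 CPM at 72 h, against 11.9 and 15.0 CPM at 24 h. The log2 difference was −3.16 ± 0.971 (SE, adjusted p = 0.0402). The call was lost without any 1 of the 24 h or 72 h libraries (adjusted p between 0.0682 and 0.375). Its raw counts were 0 and 1 at 72 h, against 7 and 11 at 24 h.

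In Col18a1, the peak 14.9 kb into the gene (chr10:77151302-77152007) had 48.5 and 28.2 CPM at 72 h, against 107 and 95.5 CPM at 24 h, and 77.0 and 64.2 CPM in control. Its log2 fold change was −1.33 ± 0.265 (SE, adjusted p = 0.00102), with a call lost without 72 h replicate 2 (0.0626). The 24 h libraries lay above both controls and the 72 h libraries below both. The strongest Col18a1 peak had a smaller difference, −0.60 ± 0.190 (SE, adjusted p = 0.0452), which was lost without any 1 of the 24 h or 72 h libraries (between 0.0507 and 0.549).

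Col22a1, which encodes a collagen of tissue junctions, had a peak inside the gene with 41.6 and 31.4 CPM at 72 h, against 76.7 and 75.0 CPM at 24 h. Its log2 fold change was −1.02 ± 0.287 (SE, adjusted p = 0.0240), lost without any 1 of the 24 h or 72 h libraries (between 0.0724 and 0.188).

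Higher at 72 h were a peak inside Col16a1 with 150 and 107 CPM, against 68.2 and 79.1 CPM at 24 h (0.82 ± 0.207, SE, adjusted p = 0.00986), and a peak 3.02 kb into Col5a1, a regulator of fibril width, with 55.5 and 40.8 CPM at 72 h, against 17.1 and 27.3 CPM at 24 h (1.11 ± 0.345, SE, adjusted p = 0.0433). The Col16a1 call was lost without 24 h replicate 1 (0.0928) or 72 h replicate 1 (0.410), and the Col5a1 call without any 1 of the 24 h or 72 h libraries (between 0.0625 and 0.420). What sets these differences was not tested.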

How the results depend on the processing

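Counts of called collagen peaks moved most with the test, the depth and single libraries. DESeq2 called 0 at 24 h, 1 at 48 h, 1 at 72 h, 2 over the mean and 0 at 72 h against 24 h, beside edgeR's 7, 10, 11, 13 and 6. It gave no adjusted p to 22 of the 83 tested peaks over the mean. This held for 44 peaks at 24 h, 41 at 48 h and 31 at 72 h against control. At 72 h against 24 h it held for 55. Thinning every library to the smallest total gave 3, 3, 5, 7 and 2, with 68 collagen peaks tested, beside 4.91%, 4.54%, 8.96%, 9.90% and 2.03% of all peaks. Members within 10 kb numbered 3 called at 24 h, 6 at 48 h, 7 at 72 h and 9 over the mean, and summed replicate pairs gave 3 at 72 h against 24 h. Leaving out each library gave 1 to 8 at 24 h, 2 to 10 at 48 h, 3 to 13 at 72 h, 2 to 15 over the mean and 1 to 7 at 72 h against 24 h, where an arm left with a lone library is assumed to vary like the others. The lowest counts against control were without control replicate 2, and at 72 h also without 72 h replicate 1. RLE size factors and no filter on low counts left each count within 1.5 times. With a replicate block the counts were 7, 9, 10, 12 and 5, over the mean without the Col4a1 rise (adjusted p = 0.0589), and the samples share only a number.

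The 41 named peaks recomputed pool collagen peaks and called peaks of the related list. Of their 561 recomputed values over the mean, 424 kept their direction and side of the threshold, 129 were no longer called, 2 became called and 6 changed sign. These counts are therefore not those of the collagen peaks alone. The sign changes were at uncalled peaks. With each library left out in turn, the Col16a1 peak far upstream ran between −0.10 (without control replicate 1) and 0.066 (without control replicate 2), with 0.0095 without 24 h replicate 2. Likewise the strongest Col18a1 peak ran between −0.046 and 0.15 (without 72 h replicate 2 and 1), the Col6a3 peak upstream between −0.073 and 0.18 (without 72 h replicate 1 and 2), and the peak at the start of Col7a1 between −0.0058 (without control replicate 2) and 0.12, with −0.19 when thinned. The cause was not tested. Low counts limit what could be called: 8 collagen peaks were not tested, and the Col6a1 and Col6a2 calls rest on summed counts of 74 to 184.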
